A study of Drosophila melanogaster with 6 samples.

Results

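Of the 10950 positions at which Flag-tagged Dwg was called against the IgG control in S2R+ cells, 1563 (14.3%) lay just upstream of a gene start. Each position is a summit, the 1 bp at which the ChIP signal of a called peak was highest. A summit was counted here when the nearest start of a protein-coding transcript lay 51 to 1000 bp away and the summit was upstream of it on the gene's strand. Summits between a pair of starts of different genes that point away from each other and lie at most 500 bp apart were left out. Nothing in this choice used the strength of the signal or the sequence. The nearest starts of the 1563 upstream summits belonged to 1362 of 13945 protein-coding genes, which is 9.77% of these genes. At 22 of them 2 genes shared the nearest start position and the summit was given to the first by gene identifier, and at 1 of them starts of both directions lay equally near.

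Dwg, also known as Zw5, is a zinc finger protein that was first described at a boundary element of a heat shock gene locus. Insulator proteins of this kind can block an enhancer from acting on a promoter when they are bound between the pair, and they can bring distant insulators together. Many insulator proteins of the fly bind close to gene starts, where a site may lie within the promoter itself or farther out, next to regulatory sequence.

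The 6 libraries came from S2R+ cells, an embryonic line of Drosophila melanogaster, that expressed Flag-Dwg, from a promoter not given for these libraries in the sources used here. DNA from 2 anti-Flag ChIP libraries was set against that from 2 libraries made with the IgG control antibody, and in a second list against 2 input libraries. Both input libraries carry dwg1 as their antibody label, against their titles, by which they were grouped here. No library from cells that lack Flag-Dwg was used here, so that binding of the antibody to other proteins and the effect of expressing tagged Dwg cannot be told apart from binding of native Dwg. Both lists hold a score for each summit, the −log10 of the MACS2 q-value, and no value per library. The depth of each library is therefore unknown from them, no replicate error could be given, and scores were compared within a list only.

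DNA under some of the 20 strongest upstream summits is shown first, because short runs of letters in it are described further on. These windows were picked by the letters they hold, so they do not show how common the letters are. Each line gives a summit and the 50 bp to both sides of it, 5′ to 3′ on the strand of the nearest gene, from NCBI's copy of the Release 6 genome (dm6). Capitals mark ATTCGC and CAGCTG on either strand (GCGAAT is ATTCGC on the other strand). The choice of these letters was made after the 6-mers had been compared. The first 5 are among the strongest and hold ATTCGC, the next 2 hold CAGCTG alone, Sur and CG6878 hold neither, and Atg8a is shown as the only gene named Atg and a number with an upstream summit.
CG31388 (chr3R:11237701-11237801, plus strand, 64 bp upstream of its start): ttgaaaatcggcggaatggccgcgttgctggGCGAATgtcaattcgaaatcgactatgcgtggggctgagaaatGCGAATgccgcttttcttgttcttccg
Rh5 (chr2L:12007624-12007724, plus strand, 479 bp upstream): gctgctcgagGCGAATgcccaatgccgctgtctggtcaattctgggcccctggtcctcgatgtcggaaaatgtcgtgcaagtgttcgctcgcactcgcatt
vig (chr2L:15068084-15068184, minus strand, 56 bp upstream): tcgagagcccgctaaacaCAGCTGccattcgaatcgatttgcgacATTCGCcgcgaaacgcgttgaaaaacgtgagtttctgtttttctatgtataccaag
eRF3 (chr2L:12436370-12436470, plus strand, 270 bp upstream): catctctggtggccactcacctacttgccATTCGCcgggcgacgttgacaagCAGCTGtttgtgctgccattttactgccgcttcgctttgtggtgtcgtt
CtBP (chr3R:13017002-13017102, plus strand, 109 bp upstream): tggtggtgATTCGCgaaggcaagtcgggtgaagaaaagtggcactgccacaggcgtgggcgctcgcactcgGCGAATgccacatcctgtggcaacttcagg
Snx27 (chrX:5738040-5738140, minus strand, 59 bp upstream): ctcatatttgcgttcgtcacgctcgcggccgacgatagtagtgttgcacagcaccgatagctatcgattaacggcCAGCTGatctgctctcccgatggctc
milt (chr2L:7042247-7042347, plus strand, 62 bp upstream): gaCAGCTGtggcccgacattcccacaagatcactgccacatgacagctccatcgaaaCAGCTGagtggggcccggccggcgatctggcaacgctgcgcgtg
Sur (chr2L:10199124-10199224, minus strand, 57 bp upstream): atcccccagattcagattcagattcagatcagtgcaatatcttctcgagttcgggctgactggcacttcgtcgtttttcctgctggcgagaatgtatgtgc
CG6878 (chr3L:15160987-15161087, plus strand, 780 bp upstream, in coding sequence of CG7011): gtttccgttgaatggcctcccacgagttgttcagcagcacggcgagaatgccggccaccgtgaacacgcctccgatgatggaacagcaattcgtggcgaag
Atg8a (chrX:10766742-10766842, minus strand, 136 bp upstream): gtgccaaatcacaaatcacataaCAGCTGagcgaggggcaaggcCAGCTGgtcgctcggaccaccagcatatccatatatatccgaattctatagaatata

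CG31388 and Atg8a mark the range of strength in these lines, with scores of 905.1 and 18.8. In CG31388 the marked letters occur 2 times, both in the GCGAAT direction, and in each the next letter makes the 7-base run CATTCGC on the opposite strand. CtBP also holds ATTCGC in 2 places, in opposite directions. The Atg8a window holds CAGCTG in 2 places and no ATTCGC.

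Upstream summits were most frequent next to the start and thinned out over the first 200 bp. Distance groups are given by their limits, the lower one excluded after the first group. Between 51 and 100 bp there were 347 of them, or 488 per Mb of the sequence that met the rule. The density was 212 per Mb at 100 to 150 bp, 149 per Mb at 150 to 200 bp and 107 per Mb at 300 to 400 bp. It then stood at 141 and 150 per Mb at 400 to 500 and 500 to 600 bp before it declined to 84.3 per Mb at 900 to 1000 bp. Over the whole range the density was 151 per Mb in 10.4 Mb of sequence, against 871 per Mb within 50 bp of single starts, 238 per Mb at 51 to 1000 bp downstream, 38.3 per Mb farther from any start and 81.8 per Mb over all 6 chromosome arms. The median distance was 346 bp, with quartiles of 113 and 603 bp.

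**Figure D1:**
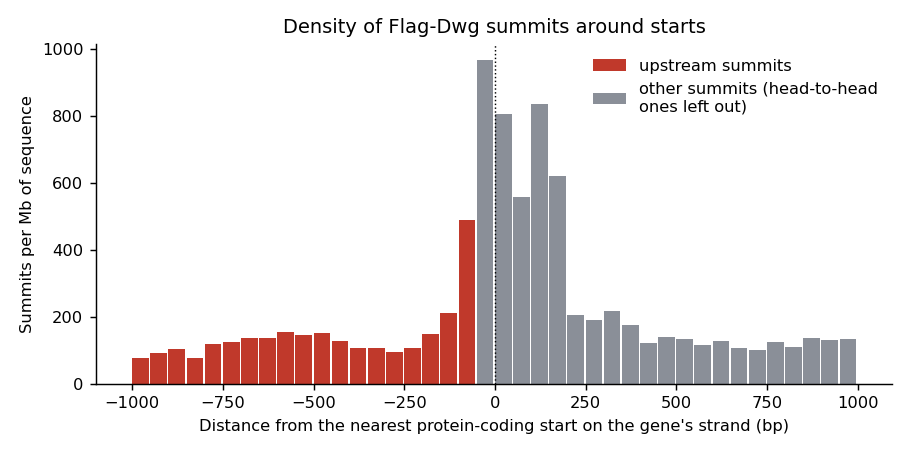
Summits per Mb of sequence (vertical axis) against distance from the nearest protein-coding start in bins of 50 bp (horizontal axis, negative upstream), with upstream summits in red and other summits in grey. The red bars stand at 488 per Mb next to the start, near 107 per Mb at 300 to 400 bp and between 129 and 153 per Mb at 400 to 600 bp.

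The second, lower maximum was not seen in the number of summits that stood alone at their start. No pair of summits in the list lay closer together than 264 bp, and the part of this spacing in the maximum was not tested. Of the 1563 upstream summits, 861 (55.1%) had another summit within 1000 bp of the same start, most often downstream of it (560 summits) and in 160 cases within 50 bp of it. The other 702 (44.9%) stood alone. Summits that stood alone lay at a median of 189 bp and the others at a median of 478 bp from the start, with a median gap of 674 bp to the nearest other summit. The number that stood alone was 209 at 51 to 100 bp, 100 at 100 to 150 bp and 55 at 150 to 200 bp. In groups of 100 bp it was then 71 at 200 to 300 bp, 59 at 300 to 400 bp, 51 at 400 to 500 bp, 42 at 500 to 600 bp and 23 at 900 to 1000 bp. These are counts and not densities. Where a start had several summits, the upstream one had the highest score in 341 cases (median score 37.2) and another had a higher score in 519 cases (median score 8.81). The medians of 13.9 for summits that stood alone and 13.2 for the others were close to each other.

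The strength of upstream summits was near that of the list as a whole. Their median score was 13.3 (quartiles 6.47 and 35.1), against 26.7 for summits on single starts, 36.6 for those between head-to-head starts, 13.0 for those downstream and 9.68 for those far from starts. A score of at least 20 was reached by 589 (37.7%, 95% Wilson interval 35.3 to 40.1%) of upstream summits and by 36.1% (35.2 to 37.1%) of all other summits, intervals that overlap. A score of at least 100 was reached by 123 upstream summits (7.87%), against 676 of the 9387 others (7.20%). They made up 15 of the 100 and 158 of the 1000 highest summits. Scores were highest next to the start and lowest at the far end. The median score was 21.5 at 51 to 100 bp and 51.3% of these summits scored at least 20, while at 900 to 1000 bp the median was 8.54 and 21.4% scored at least 20. These intervals treat summits as independent, which they are not, and cover counting error only.

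**Figure D2:**
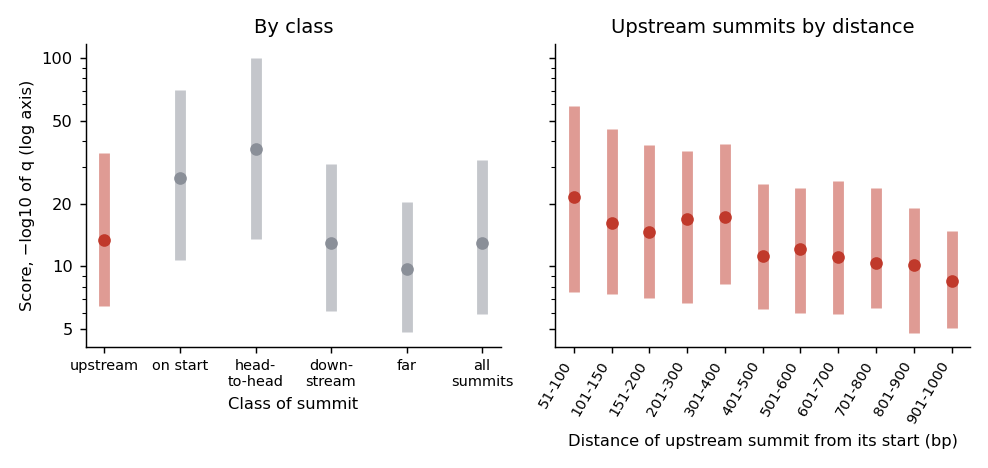
Score of a summit, −log10 of q on a log axis (vertical), as median (point) and quartiles (bar), by class of summit (left, upstream in red) and by distance of upstream summits from their start in bp (right). The upstream median of 13.3 lies below that on starts (26.7), and within upstream summits the median lies at 21.5 in the bin nearest to the start and at 8.54 in the farthest.

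The limits of the rule cut through a continuous distribution. The 9 summits at 51 bp, just inside, had a median score of 50.3 (at RpS5a, Gnmt, prod, stau, Mtpalpha, Gpo1, CG3168, Atat and CG6928), and the 15 at 50 bp, just outside, a median of 40.2. At the far end, the summit at Rhp lay 997 bp upstream with a score of 5.47, and the first one outside, at CG34417, lay 1002 bp upstream with a score of 15.1. Between starts that point away from each other, 30 upstream summits lay in gaps of 500 to 600 bp (median score 51.9), and 19 summits left out by the rule lay in gaps of 400 to 500 bp (median score 32.2).

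The 20 strongest upstream summits scored 312.4 to 905.1, with a median of 460.5. Of these, 10 lay within 100 bp of the start and 13 within 200 bp, while the farthest lay 780 bp away. The highest of the whole list belonged to this group: CG31388, a gene known by its annotation number, had a score of 905.1 at 64 bp. Rh5, an opsin of photoreceptors, followed with 848.0 at 479 bp. The next was vig, whose protein is found in the RNA-induced silencing complex, with 793.3 at 56 bp in an intron of solo. Galphas, the stimulatory G protein subunit, had 792.4 at 70 bp, and eRF3, a translation release factor, had 609.7 at 270 bp. These 5 summits were the 5 highest upstream ones and ranked 1, 3, 4, 5 and 23 in the whole list.

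The other 15 of the 20 scored between 592.9 and 312.4. The ATP-binding cassette protein gene Sur had a score of 592.9, the RNA-binding protein gene msi 556.2 and the sorting nexin gene Snx27 480.8. Pka-R2, a regulatory subunit of protein kinase A, had 470.3, and milt, an adaptor for the transport of mitochondria along microtubules, had 468.4. CG30496 had 452.6 in an intron of Coq9. Trf2, a TBP-related factor that acts at many promoters without a TATA box, had 373.7, CG6878 373.0 and CG2225 358.9. The proteasome subunit gene Prosalpha2 had 357.1, the glycogen branching enzyme gene AGBE 341.9, the NAD kinase gene Nadk2 339.2, CG4678 324.0, the lysosomal sulfatase gene Ids 313.4 and the corepressor gene CtBP 312.4. These are scores of single summits with no replicate check. Of all 20, 8 lay between genes, 7 inside another gene and 6 inside their own gene, where the one at vig lay inside both solo and vig, and 15 had no other summit within 1000 bp of the start.

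Most upstream summits were also called when the same ChIP was set against input. In that list a summit lay within 100 bp of 1386 upstream summits (88.7%, 87.0 to 90.2%), against 86.6% (85.9 to 87.2%) of all other summits and 1378 of the 1451 on single starts (93.7 to 96.0%). The median shift between the lists was 0 bp. All 20 of the strongest had an input summit at most 1 bp away. The share was 94.2% at 51 to 100 bp from the start, lay between 84.0% and 91.1% in the groups from 100 to 700 bp, and was 92.9%, 91.1% and 81.4% (70.8 to 88.8%) in the last 3 groups of 100 bp, with no steady decline. The ChIP libraries behind both lists are the same, and a shared summit is no replicate.

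Upstream of a start did not mean between genes. Of the 1563 summits, 538 (34.4%, 32.1 to 36.8%) lay inside another protein-coding gene, 490 (31.4%) only inside an earlier part of the gene whose start was nearest, 58 (3.71%) inside a noncoding gene only and 477 (30.5%) between genes. Of the 538 inside another gene, 63 lay inside the gene of the nearest start as well, which gives 553 (35.4%) inside their own gene. Within another gene they lay in coding sequence in 322 cases, in introns in 128 and in 3' UTRs in 82, and the host gene was on the same strand in 409 cases and on the opposite strand in 129. The 490 inside their own gene only lay mostly in introns (395) and 5' UTRs (69), ahead of an internal start. For these 553 summits the nearest start was an internal start, and for the other 1010 (64.6%) it was the outermost start of the gene.

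Set against the sequence that met the distance rule, coding sequence and 5' UTRs held more upstream summits than their length. Coding sequence made up 11.4% of that sequence and held 346 summits (22.1%, 20.2 to 24.3%), a density of 293 per Mb. For 5' UTRs the shares were 5.05% (4.07 to 6.25%) of summits and 1.91% of sequence, a density of 400 per Mb. Sequence between genes held 30.5% (28.3 to 32.8%) of summits and made up 44.7% of the sequence, a density of 103 per Mb. For 3' UTRs the shares were 5.37% (4.36 to 6.61%) of summits and 8.95% of sequence. Introns held 33.2% (30.9 to 35.6%) of summits and made up 29.9% of the sequence, a density of 168 per Mb. Base composition moved with these differences in part. Mean GC content was 52.7% in the coding sequence, 43.4% in the 5' UTRs, 39.2% in introns, 37.8% between genes and 33.5% in the 3' UTRs that met the rule. Distance from the start differed as well. The median distance was 113 bp for summits in 5' UTRs, 196 bp between genes, 269 bp in introns, 509 bp in coding sequence and 604.5 bp in 3' UTRs. The parts of base composition and distance in the result were not tested.

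**Figure D3:**
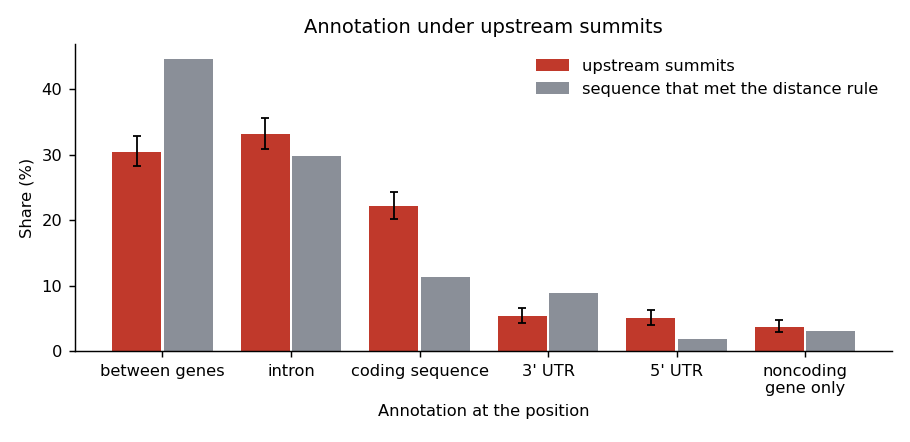
Share in percent (vertical axis) of upstream summits (red, with 95% Wilson intervals) and of the sequence that met the distance rule (grey) in each kind of annotation (horizontal axis). Coding sequence holds 22.1% of summits in 11.4% of sequence, and sequence between genes holds 30.5% of summits in 44.7% of sequence.

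Summits in coding sequence had lower scores and lay farther out than those in introns or between genes. Their median score was 9.36 and their median distance 509 bp, 22.5% scored at least 20 and 80.9% had an input summit. Between genes the median score was 17.7 at a median distance of 196 bp, 45.7% scored at least 20 and 92.2% had an input summit, and in 5' UTRs the median was 22.9. The share in coding sequence was 2.31% at 51 to 100 bp from the start, 14.0% at 150 to 200 bp and 42.0% at 400 to 500 bp. The strongest in coding sequence were the summit at CG6878, inside CG7011, and the one at Prosalpha2, inside CG5245. Of the 477 between genes, 283 (59.3%) lay between genes in tandem, downstream of a neighbor on the same strand, at a median gap of 986 bp. Another 193 (40.5%) lay between genes that point away from each other, at a median gap of 2046 bp. The rule left out summits between such starts at most 500 bp apart, so this split and the longer gap follow in part from the choice. Shares of the sequence in the 2 arrangements were not counted.

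Few upstream summits lay at starts of noncoding RNAs. Within 50 bp of such a start lay 22 upstream summits (1.41%), against 0.511% of all summits. The strongest was the one near Tailor, with a score of 154.6 at 8 bp from the start of asRNA:CR45907, and none of the 22 lay at a tRNA start. Counted at any distance, a noncoding start was nearer than the protein-coding one for 90 upstream summits (5.76%).

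Most of the 1362 genes had a single upstream summit (1188 genes), 150 had 2 and 24 had 3 or more. Genes with several starts were found more often. Of genes with 1 start 6.26% had an upstream summit, of those with 2 starts 13.6%, of those with 3 or 4 starts 29.4%, and of those with 5 or more starts 49.5% (94 of 190), and each additional start also adds sequence that meets the rule. The myosin VI gene jar, whose product is a minus end-directed motor, had 5 at a pair of starts. The jar summits scored 245.6, 21.6 and 3.93 at 93, 484 and 810 bp from the outermost start, and 10.2 and 4.82 at 300 and 680 bp from an internal one. The reticulon gene Rtnl1, which shapes the endoplasmic reticulum, had 4, all in its introns, with scores of 37.8, 6.19, 4.02 and 2.69. The remaining 22 genes had 3 each.

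Among those 22 genes the highest scores were at Snx27 (480.8), the HMG-box gene HmgZ (205.1), the fatty acid desaturase gene Desat1 (139.3), wech (116.8), Alr (99.6), Pcyt1 (91.4), Myo61F (62.7), kay, the fly's Fos (61.5), CG43102 (58.2), the acetyl-CoA carboxylase gene ACC (51.7), east (45.3) and larp (43.6). The highest summit scored between 5.92 and 39.6 at the other 10, which are CG18135, Svil, SNF4Agamma, blow, CG9837, Syp, CG42331, RhoGAP18B, mars and CG5004. The 3 at HmgZ lay in introns of its neighbor HmgD, and those at 93 and 386 bp lay inside HmgZ as well.

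Of the 11 gene lists compared, cell cycle genes had the highest share with an upstream summit, 7 of 26 (26.9%), beside 9.77% of all protein-coding genes. CycE, the cyclin that drives entry into S phase, had a score of 168.0 at 77 bp, CycB3 123.4 at 58 bp, the transcription factor gene E2f1 107.2 at 105 bp and the kinase gene Cdk4 102.1 at 673 bp. The inhibitor gene dap had 23.6 at 54 bp, and Dp and stg, a partner of E2F and the Cdc25 phosphatase, had 12.3 and 4.89. The nearest input summit to the one at stg lay 484 bp away, and another summit within 1000 bp of that start scored 23.2. The median over these 7 genes was 102.1, against 14.7 for all genes with an upstream summit. Counting summits of every class, 22 of these 26 genes (84.6%) were nearest to at least 1 summit, against 41.6% of all genes. Most of the other lists also lay above 41.6%, as given with the Atg genes below.

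Signaling genes of the EGFR, JAK-STAT, Dpp and Toll pathways had an upstream summit at 7 of 39 genes (17.9%). Of these, 3 encode NF-kappaB proteins of the immune pathways: Rel with a score of 273.2 at 64 bp, dl with 244.0 at 52 bp and Dif with 35.0 at 204 bp. Raf, the kinase below Ras, had 53.0 at 232 bp and sty, the Sprouty inhibitor, had 26.9 at 774 bp. In the Notch, Hippo, Wingless and Hedgehog pathways 7 of 40 genes had one (17.5%). Of these, the Notch coactivator gene mam (51.3) and the Hedgehog receptor gene ptc (38.9) scored above 20. The upstream summits at arr (15.7), arm (13.7) and Apc (13.7) of the Wingless pathway did not. Summits of other classes or starts can be stronger: another within 1000 bp of the same start scored 113.4 at arr and 42.1 at arm, while Apc had no other. In the insulin and TOR list it was 3 of 20 (15.0%), namely the kinase gene Pdk1 (82.5), Pi3K21B (32.9) and REPTOR (7.81).

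Genes of insulator and architectural proteins had an upstream summit in 4 of 19 cases (21.1%), with 3 further symbols of the list matching no gene. These were Cp190, a cofactor of several insulator proteins, with a score of 57.5 at 70 bp, pita with 44.6 at 188 bp, BEAF-32 with 34.1 at 363 bp and CTCF with 7.94 at 902 bp. The gene dwg itself had none.

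The shares of the next 5 lists lay closer to the 9.77% of all genes. Cytosolic ribosomal protein genes had one in 10 of 93 cases (10.8%), led by RpL37-1 (236.3), RpS5a (201.1), RpS29 (123.3), RpL35A (37.8) and RpL6 (25.1). In the oxidative phosphorylation list it was 9 of 89 (10.1%), led by COX7AL2 (111.6), COX7C (100.2), ATPsynC (99.4), ND-75 (59.1) and ND-20 (37.1), of which the last 4 lay at 66 to 75 bp. Mitochondrial ribosomal protein genes had one in 4 of 73 cases (5.48%), mRpS33 (67.6), mRpL9 (19.6), mRpL12 (14.5) and mRpL45 (3.84). Heat shock protein genes had one in 3 of 26 cases (11.5%), Hsp110 (199.98), Hsp67Ba (26.4) and Hsc70-3 (6.13). Hox and segmentation genes had one in 2 of 24 cases (8.33%), Abd-B (13.0) and slp2 (3.19). The summits at mRpL45, Hsc70-3 and slp2 had no input summit within 100 bp. For these the nearest one lay 687, 629 and 19358 bp away.

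Of 20 genes named Atg and a number, 1 had an upstream summit, Atg8a (5% of them, beside 9.77% of all genes). In this list 14 were nearest to a summit of some class (70% of them, beside 41.6% of all genes). That share was 82.1% in the EGFR, JAK-STAT, Dpp and Toll list, 80% in the insulin and TOR list and 78.9% for insulator genes. It was 73.1% for cytosolic ribosomal protein genes, 65% in the Notch, Hippo, Wingless and Hedgehog list and 58.9% for mitochondrial ribosomal protein genes. Oxidative phosphorylation genes stood at 55.1%, and only the heat shock (30.8%) and the Hox and segmentation (16.7%) lists lay below 41.6%. Atg8a encodes the ubiquitin-like protein that is joined to lipid on the autophagosome membrane. Its summit lay in an intron of Atg8a at chrX:10766792, 136 bp upstream of an internal start, with a score of 18.8, and a summit lay 2 bp away in the list against input. These lists were compared with all genes by their counts alone, with no test, and the number of starts per gene, which moves with the share as given above, was not matched.

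The sequence under upstream summits was rich in G and C. Mean GC content over a summit and the 50 bp to both sides was 52.6% ± 6.43 (SD, n = 1563 summits), against 40.5% ± 11.2 in a window of the same size centered 350 bp away on the side away from the start, and it was higher at the summit in 1294 of the 1563 pairs (82.8%). In 25-bp bins the mean peaked at 55.6% and was lowest, 38.8%, on the side of the start. Other classes had similar means at the summit, 50.7% on single starts and 52.9% downstream. The sequence that met the rule had a GC content of 39.8%.

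**Figure D4:**
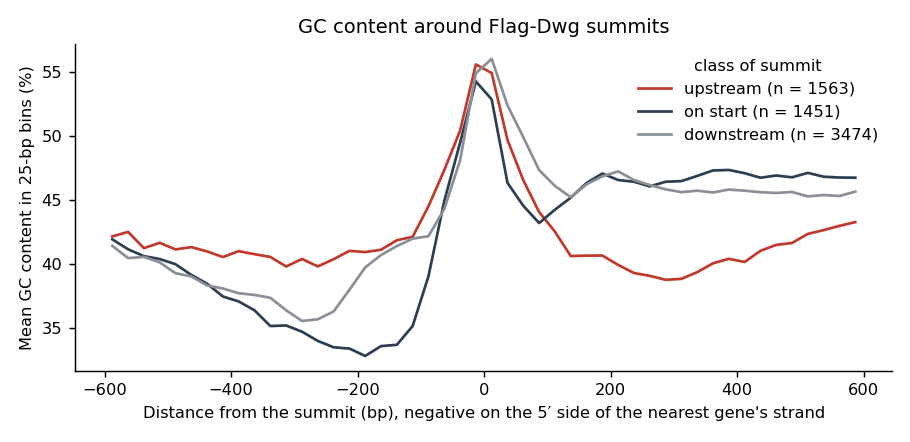
Mean GC content in percent in 25-bp bins (vertical axis) against distance from the summit in bp, oriented on the strand of the nearest gene (horizontal axis), for upstream summits (red), summits on single starts (dark) and summits downstream (grey). All 3 lines peak at the summit, and the upstream line reaches 55.6% there and lies at 40.5% 338 bp away on the 5′ side.

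The 6-mer comparison followed this difference in composition. Every 6-mer, with both strands merged, was compared between the summit window and the window 350 bp away. The test was McNemar's, exact and two-sided, and p-values were adjusted over all 6-mers by the Benjamini-Hochberg method. At an adjusted p under 0.05, 564 6-mers (27.1%) were found at more summits than comparison windows and 429 (20.6%) at fewer. Of the 564, 464 had at least 4 letters G or C, and of the 429, 417 had at most 2. In this exact test the 6-mer with the smallest p was AAATAT, present in 77 summit windows and 324 comparison windows (adjusted p = 1.13e-39), and the strongest in the other direction was CGACGC with 128 against 23 (adjusted p = 1.2e-17).

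A comparison window with GC content close to that of the summit was therefore added after these values had been seen. It was the window centered over 200 and up to 600 bp away, on the side away from the start, whose GC content was nearest to that at the summit, and its mean was 49.4%. Against it 105 6-mers (5.05%) were more frequent at summits and 95 (4.57%) less frequent, and all 105 were also among the 564. Composition was still 3.28 percentage points apart, and all but 4 of the 105 had at least 4 letters G or C, so the letters and the remaining difference cannot be told apart for most of them. By the same exact test, AGCGGC was present in 164 summit windows and 77 GC-matched windows (adjusted p = 4.78e-06), CGACGC in 128 and 57 (adjusted p = 5.41e-05) and GAACGC in 113 and 48 (adjusted p = 0.000115). GAGAGC, also by the exact test, was present in 175 and 100 (adjusted p = 0.00021), and ATTCGC, with only 3 letters G or C, in 158 and 88 (adjusted p = 0.000454). Summits of neighboring starts and 6-mers that share letters mean that these tests are not independent.

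Calls against GC-matched windows were also counted by distance from the start. For the 493 summits at 51 to 150 bp, 40 6-mers were more frequent and 27 less frequent than in the GC-matched windows. For the 359 at 150 to 400 bp no 6-mer passed in this McNemar test, with 156 at an unadjusted p under 0.05, and for the 711 at 400 to 1000 bp 1 passed, a less frequent one, with 209 at an unadjusted p under 0.05. In the exact test GAGAGC was present in 84 summit windows against 32 GC-matched windows at 51 to 150 bp (adjusted p = 9.82e-05), in 39 against 25 at 150 to 400 bp (adjusted p = 0.776) and in 52 against 43 at 400 to 1000 bp (adjusted p = 0.884). The match in GC content was poorest close to the start: it was 52.8% at summits and 47.9% in GC-matched windows at 51 to 150 bp, 51.9% and 48.98% at 150 to 400 bp, and 52.9% and 50.5% at 400 to 1000 bp. Its part in these counts and whether the distance groups differ were not tested.

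GAGAG, the core of the repeat bound by GAGA factor, was found within 50 bp of 317 upstream summits (20.3%, 18.4 to 22.3%), searched on both strands. It was found at 14.0% (13.3 to 14.8%) of all other summits, at 16.4% of those on single starts and at 12.9% of those downstream, and in 10.8% of windows 350 bp away and 16.2% of GC-matched windows. Of windows centered 350 bp upstream of any protein-coding start, 10.7% held it. The share among upstream summits was 28.2% at 51 to 150 bp, 20.3% at 150 to 400 bp and 14.8% at 400 to 1000 bp from the start. At scores of at least 100 it was 23.6% (17.0 to 31.8%), against 9.91% (7.88 to 12.4%) of other summits of that strength. These intervals of upstream and other summits do not overlap, and the difference itself was not tested.

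Letters known from core promoters were counted in the same windows. An upstream window ends before the start by the rule and a window on a start holds it, so differences between these classes in letters placed at starts follow from the choice of the classes. GTCACAC, the core of Motif 1 of fly promoters, was found at 36 of 1563 upstream summits, against 174 of 1451 summits on single starts and 14.6% of head-to-head ones, and in 1.33% of windows 350 bp upstream of all starts. ATCGAT, the core of the DNA replication-related element, was found at 3.65%, against 7.79% on single starts. CGATA, which is part of the sequence bound by BEAF-32, was found at 14.1%, the same share as in the GC-matched windows, and GGTGGCG, from the core of the CTCF motif, at 2.75%, against 2.56% in them. TATAAA was found at 3.65%, against 13.5% of windows 350 bp away but 4.09% of GC-matched windows. For the initiator-like TCAGT the shares were 13.9% and 13.5% of GC-matched windows, and for the downstream element-like CGGTT 17.6% and 14.1%. A match of such short letters is a description of the DNA and not of a bound factor.

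CAGCTG was found at 161 upstream summits (10.3%), against 4.54% of windows 350 bp away and 6.91% of GC-matched ones. It was more frequent at starts, with 16.7% on single starts and 26.2% between head-to-head starts, and downstream summits held it in 7.31% of cases. At scores of at least 200, 13 of 51 upstream summits held it (25.5%, 15.5 to 38.9%), against 21.3% (16.8 to 26.6%) of the other summits of that strength. Below that score the share at upstream summits showed no steady rise. It was 9.82% for scores under 5, 9.14% for 5 to 20, 10.4% for 20 to 50, 11.3% for 50 to 100 and 9.72% for 100 to 200. Around the 123 upstream summits with scores of at least 100, 24 matches lay within 50 bp of the summit, 12 on each side, and 5 and 7 in the next 50 bp on either side.

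The 7-base run CATTCGC, which holds ATTCGC, was more frequent at higher scores. ATTCGC was picked from the 6-mer comparison of these same windows, so the shares given here describe them and are no separate support. The share of CATTCGC in GC-matched windows was not counted. Within 50 bp of upstream summits it was found at 2.46% (1.19 to 4.98%) for scores under 5, 3.34% for 5 to 20, 4.43% for 20 to 50, 5.33% for 50 to 100, 9.72% (4.79 to 18.7%) for 100 to 200 and 21.6% (12.5 to 34.6%, 11 of 51) for 200 and above. At the same summits, windows 350 bp away held it in 1.75, 1.74, 1.27, 2.00, 1.39 and 0% of cases, the last being 0 of 51 windows, which allows a share of up to 5.88%. Other summits had nearly the same shares at the same scores, with 2.22% under 5 and 22.4% (17.8 to 27.9%) at 200 and above. Over all scores it was found at 70 upstream summits (4.48%), 4.52% of the others and 25 of the 1563 windows 350 bp away. Around the 123 with scores of at least 100, 20 matches lay within 50 bp of the summit and 12 in the remaining 500 bp of the 600 bp searched. ATTCGC itself showed no steady rise at scores below 100. Its share at upstream summits was 7.37% for scores under 5, 9.29% for 5 to 20, 10.8% for 20 to 50 and 8.67% for 50 to 100. It was 15.3% for 100 to 200 and 29.4% for 200 and above.

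**Figure D5:**
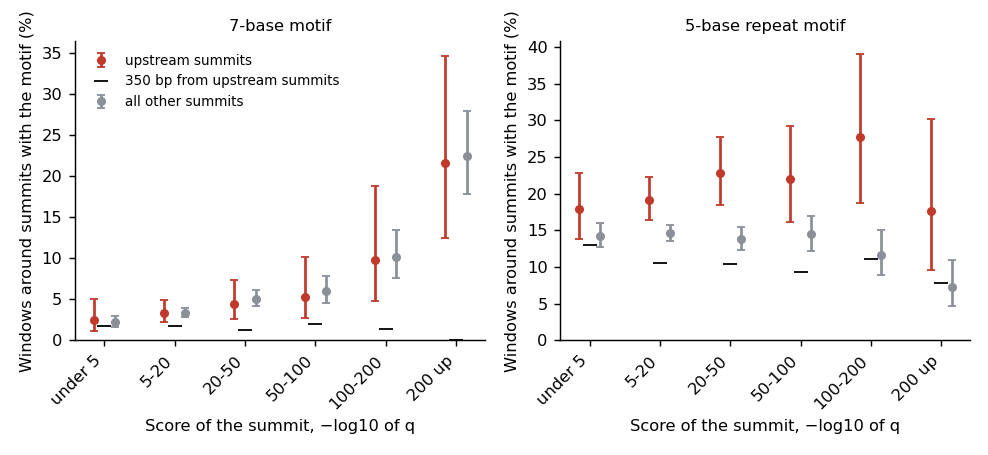
Share of windows (a summit and 50 bp to both sides) with a short motif in percent (vertical axes) by score of the summit (horizontal axes), for CATTCGC on the left and GAGAG on the right, at upstream summits (red), in windows 350 bp from them (black dashes) and at all other summits (grey), with 95% Wilson intervals. The 7-base run reaches 21.6% of upstream and 22.4% of other summits at scores of 200 and above, and GAGAG lies higher at upstream than at other summits in every score group, with intervals that overlap in some groups.

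Of the 123 upstream summits with scores of at least 100, 18 held CATTCGC (14.6%). The 5 strongest upstream summits all did: CG31388, Rh5, vig, Galphas and eRF3, whose windows except that of Galphas are printed above. The rest, chosen by these letters after they were seen, were AGBE, CtBP, vir-1, Top1, Csk, Kcmf1, CG6230, papi, CG9485, CG15142, wech, Hel89B and Cdk4, at scores of 341.9 to 102.1 and distances of 64 to 673 bp. All 18 together lay between genes in 7 cases, only inside their own gene in 8, only inside another gene in 2 and inside both in 1 case, at vig.

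Upstream summits were spread over the chromosome arms. They numbered 375 on 3R, 333 on 2R, 317 on 3L, 284 on X, 247 on 2L and 7 on 4. Per Mb of sequence that met the rule, the 5 large arms held between 130.1 and 158.0, and the fourth chromosome held 81.4 on the basis of its 7 summits. Median scores on the large arms ranged from 11.5 on X to 15.3 on 2L.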

How the data were processed

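Per the labels, chromatin was fragmented enzymatically and libraries were prepared from S2R+ cells in 6 samples, 2 each for the IP flag-dwg1, IgG control and input groups. The authors trimmed reads with Trim Galore 0.6.4, mapped them to dm6 with Bowtie2 2.3.5.1, filtered for unique reads in SAMtools 1.6 and ran MACS2 2.2.6 on read pairs. HOMER 4.11 was also named. The 2 deposited lists give 1 bp summits and, as a score, the −log10 of the q-value, whose lowest value of 1.31 corresponds to a q of 0.0494. Whether replicates were pooled before calling is not given in the sources used here. Sequence without uniquely mapped reads could not give a summit. Depth per library is unknown from the lists, so no depth-based precision could be given.

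Positions are 1-based. Starts, genes and symbols are those of Ensembl release 115 (dm6; 13945 protein-coding genes, 19607 start positions per gene and strand), and sequence is from NCBI's copy of the assembly. Windows of 101 bp were centered on summits, and the comparison windows were the one 350 bp away and, added after the data were seen, the one of closest GC content over 200 and up to 600 bp away. Summits within 100 bp in both lists counted as shared. The 6-mer test was an exact two-sided McNemar test with Benjamini-Hochberg adjustment over 2080 6-mers, checked on simulated sequences with planted 6-mers. Shares have 95% Wilson intervals. Genes were named by rule: the nearest genes of the 20 highest upstream summits, genes with the 3 highest numbers of them, up to 5 genes per list by score, Atg genes, dwg, and the members next to each threshold. Other names, such as those chosen by CATTCGC, noncoding starts or their host genes, were picked after their values were seen. The members and gene lists were chosen with earlier results of these data known. Software was Python 3.11.15 with pandas 2.3.3, NumPy 2.4.6, SciPy 1.17.1 and matplotlib 3.10.9.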

Additional observations from a re-analysis of the deposited data

How the results depend on the processing

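No paired analysis was possible because the deposited lists hold no value per library, and for the same reason no replicate could be left out. The number of upstream summits, 1563, was 947 and 589 at scores of at least 10 and 20 and 1009 within 500 bp, and within 1.5 times of the main value under the other 8 alternatives (1151 to 1864). The median score of 13.3 was 16.1 within 500 bp. In the list against input the median was 22.0, a score of another list that cannot be set against 13.3. The share with an input summit was 91.9%, 94.9% and 96.4% at scores of at least 5, 10 and 20, and 91.7% when 500 bp counted as shared. Genes with an upstream summit numbered 556 at scores of at least 20. The share inside another gene, 34.4%, was 25.3% at scores of at least 20, 26.0% within 500 bp and 53.5% when only the outermost start of each gene was used, which by construction leaves out summits ahead of internal starts. The 993 6-mers called were 554 at scores of at least 20, where fewer summits were tested, and 200 (105 higher and 95 lower) against GC-matched windows, an alternative added after the data were seen. They numbered between 671 and 1140 under the other 15 alternatives. The GC difference of 12.1 percentage points was 13.0 and 11.3 against windows on the side of the start and 500 bp away. The unknown depth limits all scores to use within 1 list.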
